A study of Mus musculus with 15 samples.

Results

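The motor of the heart muscle cell is myosin II, and the 8 myosin genes described here encode its chains: the heavy chains Myh6, Myh7 and Myh7b, the essential light chains Myl1, Myl3 and Myl4, and the regulatory light chains Myl2 and Myl7. They were taken by symbol from a table of 54532 mouse genes; all 8 were found, and all 8 passed a filter of at least 0.5 FPKM in at least 3 of 15 libraries, which 15321 genes passed in all. FPKM is a fragment count scaled by gene length and by library size. The libraries came from heart tissue of mice injected under the skin on day 1 after birth with an adeno-associated virus (AAV9) whose cTnT promoter, that of cardiac troponin T, drives its cargo in heart muscle cells, and collected 12 to 14 days later. Nat10-CKO mice, which carry a conditional knockout of the RNA acetyltransferase gene Nat10, received NAT10 with the substitution K209A (CKO_K209A), NAT10 with the substitution G641E (CKO_G641E), NAT10 without a named substitution (CKO_NAT10) or green fluorescent protein (CKO_GFP). Nat10flox/flox mice, whose Nat10 alleles carry loxP sites, received the same GFP virus (ff_GFP). Every group had 3 hearts, all groups received virus, and the Cre driver of the knockout and the animals' sex are not given in the sources used here.

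Each myosin motor pairs 2 heavy chains, which hold the ATPase and the rod that builds the thick filament, with essential and regulatory light chains that stiffen and tune the lever arm. In the mouse ventricle the fast alpha heavy chain (Myh6) replaces the slow beta heavy chain (Myh7) around birth under thyroid hormone, and Myh7 returns in stressed or failing hearts. Myl2 and Myl3 are the ventricular light chains, Myl7 and Myl4 are the atrial ones, which fetal ventricles also use, and Myl1 is best known from fast skeletal muscle. Myh7b is a minor slow-type heavy chain gene of heart and slow muscle. Introns of Myh6, Myh7 and Myh7b hold the microRNA genes Mir208a, Mir208b and Mir499, and Mhrt is a long noncoding RNA read from the opposite strand of the Myh6 and Myh7 cluster.

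The libraries held 13218352 to 15912700 reads in genes, and the 8 genes took 2.04% to 4.98% of the reads of a library. Nat10 itself (ENSMUSG00000027185) was at 3.57, 3.24 and 3.82 FPKM in CKO_K209A, at 2.58, 2.29 and 2.20 FPKM in CKO_G641E, at 2.89, 2.05 and 2.92 FPKM in CKO_NAT10, at 3.47, 3.43 and 3.53 FPKM in CKO_GFP and at 4.14, 3.87 and 4.28 FPKM in ff_GFP. The CKO_GFP hearts lay below the ff_GFP hearts without overlap, but the difference was not called (log2 -0.21, limma adjusted p = 0.165), and the 2 groups given NAT10 or its G641E form were lower still. The sources used here do not say which exons are deleted, so whole-gene reads do not check the knockout. Nor do these reads show how much of each NAT10 form the virus supplied. Between groups given different forms, unequal expression and the substitutions therefore cannot be told apart. The label of heart tissue held: the 10 heart muscle markers summed to 6255 to 16540 FPKM in every library, while the skeletal regulator Myog was listed at 0 in all 15.

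The 3 heavy chain genes lie on chromosome 14 (Myh6 and Myh7, minus strand, GRCm38) and chromosome 2 (Myh7b, plus strand). Myh6 spans 54941921 to 54966927 and Myh7 spans 54970684 to 54994626, so that Myh7 lies upstream of Myh6 with 3756 bases between them. Their promoter windows, from 250 bases before to 50 after the RefSeq start site (GRCm38.p6), are printed because Myh7 moved against Myh6 and Myh7b; the Myh6 window starts from a site 320 bases away from the 5′ end of the deposited gene. Capitals mark motifs searched on both strands. The MCAT element, bound by TEAD factors, was searched as CATTCC. The site of the cardiac zinc finger factors was searched as AGATAA. The core promoter box was searched as TATAAA, and the half-site of the thyroid hormone receptor as AGGTCA.
Myh6: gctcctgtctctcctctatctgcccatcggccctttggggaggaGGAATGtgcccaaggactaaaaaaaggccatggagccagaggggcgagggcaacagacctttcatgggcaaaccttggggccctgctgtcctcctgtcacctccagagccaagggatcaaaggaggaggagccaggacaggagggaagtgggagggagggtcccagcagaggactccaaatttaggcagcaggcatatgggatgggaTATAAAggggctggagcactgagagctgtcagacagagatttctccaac
Myh7: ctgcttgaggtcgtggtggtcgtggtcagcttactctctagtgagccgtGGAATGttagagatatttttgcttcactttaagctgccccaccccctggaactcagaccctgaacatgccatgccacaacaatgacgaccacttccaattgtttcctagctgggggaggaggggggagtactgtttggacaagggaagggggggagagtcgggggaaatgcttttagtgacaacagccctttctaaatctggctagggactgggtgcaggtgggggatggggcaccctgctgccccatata
Myh7b: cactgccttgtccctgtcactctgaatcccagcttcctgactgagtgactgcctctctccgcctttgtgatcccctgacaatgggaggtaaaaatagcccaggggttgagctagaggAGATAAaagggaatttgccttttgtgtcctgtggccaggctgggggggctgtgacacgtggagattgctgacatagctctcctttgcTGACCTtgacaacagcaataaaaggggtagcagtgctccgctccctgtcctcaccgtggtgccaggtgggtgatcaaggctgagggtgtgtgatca

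Myh6 and Myh7 each held an MCAT match, read as GGAATG on the gene's strand, beginning at positions -206 and -201 from the start site. The match to the core promoter letters in Myh6 began at position 2, downstream of the RefSeq start site, and positions in Myh6 rest on that site. Of 32851 promoter windows in the RefSeq table, 14.7% held the MCAT motif, 13.6% held the core promoter letters that Myh6 has, 11.2% the zinc finger site and 16.3% the thyroid half-site that Myh7b has. These are matches of letters, and no binding was measured here. The mature microRNAs of the 3 host introns follow, with the seed, bases 2 to 8, in capitals.
mmu-miR-208a-3p: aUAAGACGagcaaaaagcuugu
mmu-miR-208b-3p: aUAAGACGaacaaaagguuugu
mmu-miR-499-5p: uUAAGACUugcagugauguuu

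The miR-208a-3p and miR-208b-3p sequences shared the seed UAAGACG and differed at 3 of 22 positions, none in the seed. The miR-499-5p seed, UAAGACU, differed from that seed at 1 position. The libraries were made from poly(A) RNA in long fragments, so mature microRNAs were not measured, and only the reads over the precursor entries are given further on.

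The knockout with GFP was compared with the floxed control to see how hearts differ when Nat10 is deleted. The series has no group with Cre alone, so loss of Nat10 and Cre itself cannot be told apart. The Nat10 knockout hearts had less of the main ventricular chains: Myh6, Myl2 and Myl3 fell, Myh7b and Myl1 fell further, and Myh7 rose. In all, 6 of the 8 genes were called, 1 higher and 5 lower, where 40.5% of the genes tested were called in that comparison (19.8% higher and 20.8% lower). Of genes tested, 46.5% had no overlap between groups. Tests were limma on log2(FPKM + 0.5) over all 15321 genes, with Benjamini-Hochberg adjustment and a threshold of 0.05; fold changes are on that scale, which understates the change of low genes. The median log2 difference of the 8 genes was -0.79, against 0 for all genes tested. In RNA of whole tissue, fewer heart muscle cells and less RNA per cell cannot be told apart. Of 10 heart muscle markers, 6 were also lower and 1 higher, and of 5 fibroblast markers 4 were higher and 0 lower. Of 5 endothelial markers 4 were lower and 0 higher, and of 6 smooth muscle markers 3 were lower and 2 higher. Of 5 macrophage markers 2 were higher and 0 lower. The part of cell types in these differences was not tested.

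Myh6 (ENSMUSG00000040752), the alpha heavy chain, was at 3142, 2314 and 2511 FPKM in CKO_GFP hearts, against 6569, 5208 and 6538 FPKM in ff_GFP hearts. Every knockout heart lay below every control heart, and Myh6 fell by 1.21 on the log2 scale (SE 0.14, adjusted p = 2.2e-05). Myh7 (ENSMUSG00000053093), the beta heavy chain, was at 36.3, 124.6 and 152.5 FPKM in CKO_GFP hearts, against 33.7, 25.5 and 30.2 FPKM in ff_GFP hearts. The groups did not overlap, but the first CKO_GFP heart lay close to the controls while the other two were far above them. Myh7 rose by 1.56 (SE 0.40, adjusted p = 0.00714); without CKO_GFP replicate 1 the difference was 2.20, and with the 2 groups fitted alone the call ended (adjusted p = 0.0686). Myh7b (ENSMUSG00000074652) was at 7.74, 1.73 and 1.46 FPKM in CKO_GFP hearts, against 24.7, 19.3 and 22.1 FPKM in ff_GFP hearts. The same first heart kept the most Myh7b, and the gene fell by 2.76 (SE 0.39, adjusted p = 8.93e-05), or by 3.42 without that heart.

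Among the light chains, Myl2 (ENSMUSG00000013936; chromosome 5, 122100951 to 122113472) was at 1182, 1133 and 965 FPKM in CKO_GFP hearts, against 2368, 2232 and 2064 FPKM in ff_GFP hearts. This ventricular regulatory chain, which heart muscle phosphorylates to tune contraction, fell by 1.03 (SE 0.11, adjusted p = 8.76e-06) with no overlap. Myl3 (ENSMUSG00000059741; chromosome 9, 110741861 to 110769798), the ventricular essential chain, was at 1800, 1698 and 1704 FPKM in CKO_GFP hearts, against 2488, 2583 and 2526 FPKM in ff_GFP hearts. Its fall of 0.55 (SE 0.08, adjusted p = 0.000178) was the smallest of the 5, and quantile normalization ended the call (adjusted p = 0.364). Myl1 (ENSMUSG00000061816; chromosome 1, 66924295 to 66945404) was at 3.01, 4.10 and 4.13 FPKM in CKO_GFP hearts, against 9.15, 12.2 and 13.2 FPKM in ff_GFP hearts. It fell by 1.497 (SE 0.22, adjusted p = 0.000137), also without overlap. Beside it, of 4 skeletal muscle markers tested only Tnni2, the fast skeletal troponin I, was called (lower by 2.30, adjusted p = 5.4e-05); the summed skeletal markers were 7.40 to 18.9 FPKM in CKO_GFP and 8.35 to 10.5 FPKM in ff_GFP, and their part was not tested.

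**Figure D1:**
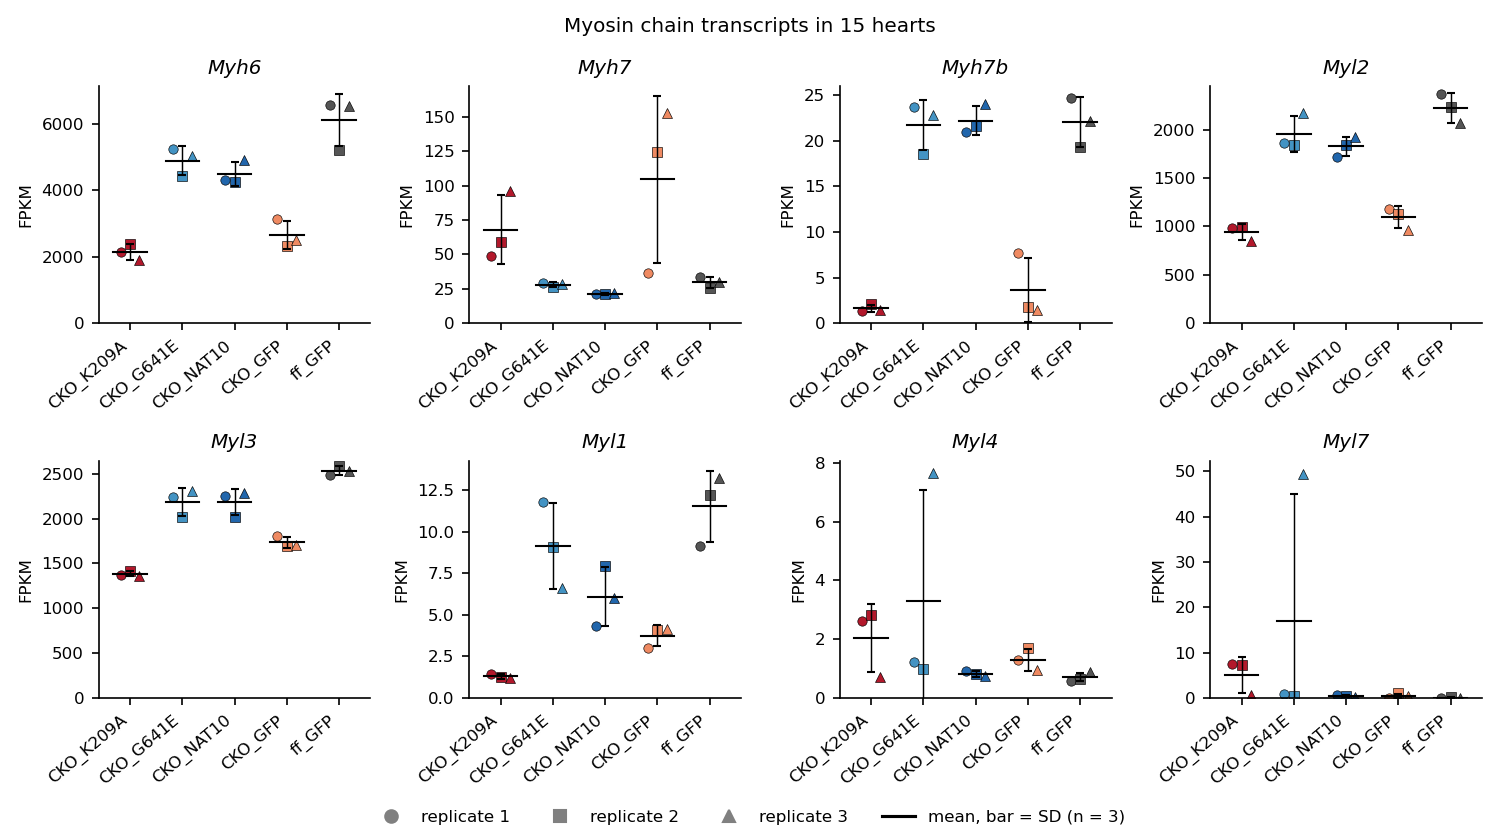
FPKM (vertical axis, linear, from 0) of the 8 myosin genes in each of 15 hearts by group, with 1 symbol per replicate number, a line at the mean and a bar of 1 SD (n = 3). Myh6, Myl2, Myl3 and Myl1 were low in CKO_K209A and CKO_GFP, Myh7 was highest in those 6 hearts, and Myl4 and Myl7 were high in CKO_G641E replicate 3 and in CKO_K209A replicates 1 and 2.

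The knockout given NAT10 was compared with the knockout given GFP to see what the added protein restores. CKO_NAT10 hearts had more Myh6, Myh7b, Myl2 and Myl3 and less Myh7: 4 of the 8 genes were called higher and 1 lower, where 31.2% of genes tested were called (15.1% higher and 16.1% lower) and 38.9% did not overlap. Myh6 was at 4307, 4237 and 4894 FPKM in CKO_NAT10, above each of the CKO_GFP values given for it, and rose by 0.76 (SE 0.14, adjusted p = 0.00144); this call ended with quantile normalization (adjusted p = 0.168) and with no filter on low values (0.0791). Myh7 was at 21.3, 20.95 and 22.2 FPKM in CKO_NAT10, below all 3 CKO_GFP hearts and also below all 3 ff_GFP hearts. Against ff_GFP it was not called (log2 -0.45, limma adjusted p = 0.664), and 25.4% of genes tested did not overlap there. It fell by 2.02 against CKO_GFP (SE 0.40, adjusted p = 0.00211), and without CKO_GFP replicate 1 it fell by 2.65. Myh7b, at 20.96, 21.6 and 24.0 FPKM in CKO_NAT10, rose by 2.78 (SE 0.39, adjusted p = 0.000185), the largest difference of the 8. Myl2 rose by 0.75 (adjusted p = 0.000252), with 1719, 1845 and 1919 FPKM in CKO_NAT10. Myl3 rose by 0.33 (adjusted p = 0.00956), with 2248, 2013 and 2284 FPKM in CKO_NAT10, but was not called with quantile normalization (0.358), no filter (0.219) or the 2 groups alone (0.136). Myl1, at 4.33, 7.92 and 6.03 FPKM in CKO_NAT10, lay above all CKO_GFP hearts but was not called (log2 0.61, adjusted p = 0.0526), and crossed the threshold without CKO_NAT10 replicate 1 (log2 0.82, adjusted p = 0.0179) and, by a narrow margin, under 3 other settings.

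In hearts given the G641E form, Myl1 was called beside the 5 genes called in CKO_NAT10: 5 of the 8 were called higher and 1 lower against CKO_GFP, where 31.3% of genes tested were called (15.4% higher and 15.9% lower) and 39.9% did not overlap. Myh6 was at 5237, 4421 and 5017 FPKM in CKO_G641E, above all CKO_GFP hearts, and rose by 0.89 (SE 0.14, adjusted p = 0.000459; 0.0603 with quantile normalization). Myh7 was at 29.5, 26.1 and 28.9 FPKM in CKO_G641E and fell by 1.64 (SE 0.40, adjusted p = 0.00756); with the 2 groups alone it was not called (0.0772). Myh7b, at 23.7, 18.6 and 22.8 FPKM in CKO_G641E, rose by 2.74 (SE 0.39, adjusted p = 0.000189). Myl1, at 11.8, 9.05 and 6.63 FPKM in CKO_G641E, rose by 1.16 (SE 0.22, adjusted p = 0.00158), and no heart overlapped with CKO_GFP. Myl2 was at 1857, 1841 and 2173 FPKM in CKO_G641E and rose by 0.84 (adjusted p = 9.64e-05). Myl3, at 2244, 2012 and 2302 FPKM in CKO_G641E, rose by 0.33 (adjusted p = 0.00903), a call that ended with quantile normalization (0.322), with no filter (0.214), with the 2 groups alone (0.113) and without the 3 libraries high in Myl7 (0.0752).

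The K209A form was set against the same knockout hearts. Here 2 of the 8 genes were called, both lower, where 7.93% of genes tested were called (2.17% higher and 5.76% lower) and 23.2% did not overlap. Myl1 was at 1.45, 1.25 and 1.19 FPKM in CKO_K209A, below all CKO_GFP hearts, and fell by 1.23 (SE 0.22, adjusted p = 0.00626). Myl3 was at 1372, 1419 and 1363 FPKM in CKO_K209A, also below all CKO_GFP hearts, and fell by 0.32 (SE 0.08, adjusted p = 0.0333). Neither call was firm: both ended with the 2 groups alone (adjusted p = 0.082 for Myl1 and 0.311 for Myl3), and both ended without the 3 libraries high in Myl7, which leaves 1 CKO_K209A heart assumed to vary like the other groups (0.146 and 0.445). Myl3 was in addition not called without CKO_K209A replicates 1, 2 or 3 or CKO_GFP replicates 1 or 3, each left out alone (adjusted p = 0.112, 0.0817, 0.064, 0.0504 and 0.0625), nor with no filter (0.363), quantile normalization (0.928) or total-count scaling (0.16). For the remaining genes the groups overlapped. Myh6, at 2142, 2387 and 1901 FPKM in CKO_K209A, differed by log2 -0.30 (95% interval -0.61 to 0.01, adjusted p = 0.217). Myl2, at 984, 998 and 846 FPKM in CKO_K209A, differed by -0.21 (-0.45 to 0.02, adjusted p = 0.257). Myh7b, at 1.37, 2.09 and 1.42 FPKM in CKO_K209A, differed by -0.65 (-1.49 to 0.19, adjusted p = 0.337). Myh7, at 48.6, 59.1 and 96.2 FPKM in CKO_K209A, differed by -0.44 (-1.30 to 0.43, adjusted p = 0.551), and without CKO_GFP replicate 1 it was called lower (log2 -1.075, adjusted p = 0.0102).

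**Figure D2:**
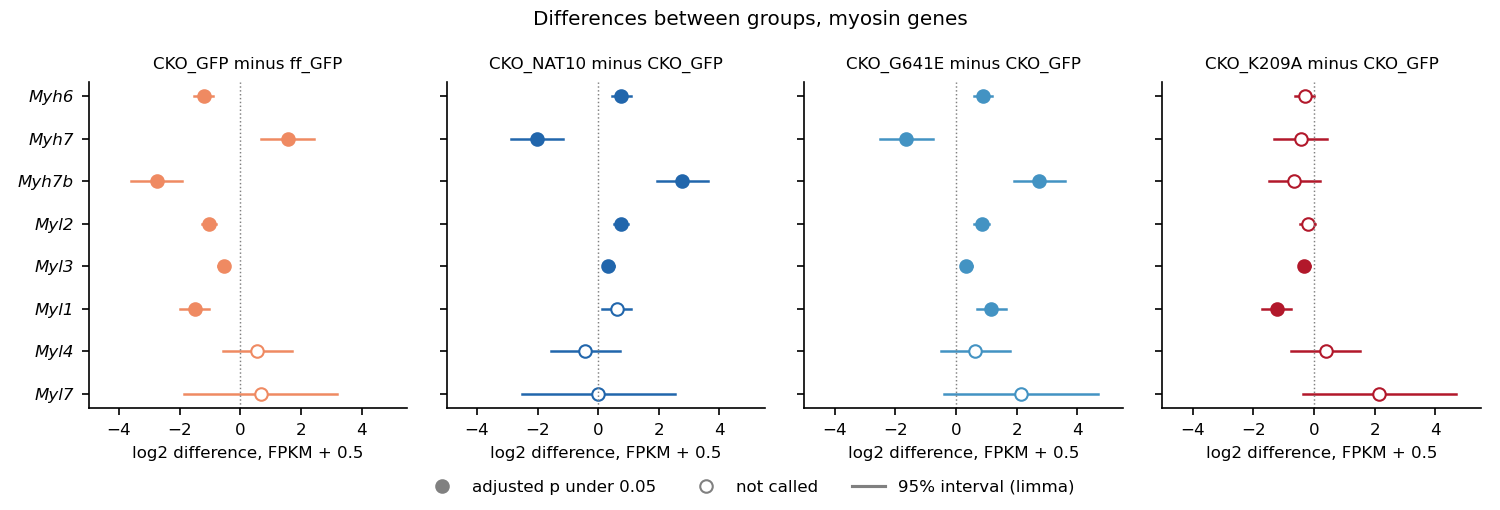
Log2 difference of FPKM + 0.5 (horizontal axis) with its 95% limma interval for the 8 myosin genes in 4 comparisons; filled symbols were called at an adjusted p under 0.05 and open symbols were not. Against CKO_GFP, CKO_NAT10 and CKO_G641E had 5 and 6 filled symbols, and CKO_K209A had 2.

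The forms of NAT10 were then compared with each other, which sets the 2 substituted proteins against the unsubstituted one and against each other. The series asks about the RNA-binding and the acetyltransferase activity of NAT10; the sources used here do not state which substitution affects which. Between CKO_G641E and CKO_NAT10 limma called 0 of the 8 genes, where 0.0522% of genes tested were called (0.0326% higher and 0.0196% lower) and 15.4% did not overlap; 1 of the 8, Myl1, had an unadjusted p under 0.05, and limma-voom on recovered reads also called 0. The intervals still leave room for differences: -0.18 to 0.44 for Myh6, -0.14 to 0.33 for Myl2, -0.18 to 0.18 for Myl3, -0.88 to 0.80 for Myh7b and -0.48 to 1.25 for Myh7, all on the log2 scale. Their width comes from a spread shared by all 5 groups, not from the hearts compared here alone. CKO_GFP hearts, which are outside this comparison, varied most in Myh7 (SD 60.7 FPKM) and Myh7b (SD 3.55 FPKM). Myh7 was higher in each CKO_G641E heart than in any CKO_NAT10 heart, with a mean of 28.2 ± 1.84 FPKM in CKO_G641E and 21.5 ± 0.643 FPKM in CKO_NAT10 (SD, n = 3 each), but was not called (adjusted p = 0.966).

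CKO_K209A hearts stood apart from both. Against CKO_NAT10, 6 of the 8 genes were called, 1 higher and 5 lower, where 41.5% of genes tested were called (20.3% higher and 21.2% lower) and 54.4% did not overlap. Against CKO_G641E the counts were also 1 higher and 5 lower, where 40.8% were called (19.6% higher and 21.2% lower) and 55.4% did not overlap; the 2 comparisons share the CKO_K209A hearts. Myh7b, the gene with the largest difference, averaged 1.63 ± 0.400 FPKM in CKO_K209A, 21.7 ± 2.73 FPKM in CKO_G641E and 22.2 ± 1.61 FPKM in CKO_NAT10 (SD, n = 3 each). It was lower by 3.43 than in CKO_NAT10 (adjusted p = 1.58e-05) and by 3.39 than in CKO_G641E (adjusted p = 1.59e-05). Myl1 averaged 1.30 ± 0.136 FPKM in CKO_K209A, against 9.15 ± 2.57 FPKM in CKO_G641E and 6.09 ± 1.79 FPKM in CKO_NAT10, and no heart overlapped. Myl2 differed by -0.96 from CKO_NAT10 and by -1.05 from CKO_G641E, and Myl3 by -0.65 and by -0.66, with adjusted p between 6.72e-06 and 4.31e-05 for these 4 values. Myh6 differed by -1.07 from CKO_NAT10 and by -1.19 from CKO_G641E (adjusted p = 6.39e-05 and 2.39e-05), but with quantile normalization neither Myh6 (adjusted p = 0.35 and 0.132) nor Myl3 (0.252 and 0.225) was called. Myh7 rose by 1.58 against CKO_NAT10 (adjusted p = 0.00652). Against CKO_G641E it rose by 1.197 (adjusted p = 0.029), a call that ended when any CKO_G641E heart or CKO_K209A replicate 2 or 3 was left out (adjusted p = 0.0521 to 0.115), with no filter (0.0615) and without the 3 libraries high in Myl7 (0.0799).

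Set against the floxed controls, the hearts given NAT10 or its G641E form had 0 of the 8 genes called by limma, where 2.47% (0.79% higher and 1.68% lower) and 1.79% (0.627% higher and 1.16% lower) of genes tested were called. Of genes tested, 25.4% and 26.9% had no overlap between groups. In CKO_NAT10, 4 of the 8 (Myh6, Myl1, Myl2 and Myl3) had an unadjusted p under 0.05, all lower, and none of these overlapped with ff_GFP; limma-voom called 1, Myl1. Myh6 averaged 4480 ± 361 FPKM in CKO_NAT10 and 6105 ± 777 FPKM in ff_GFP (SD, n = 3 each; log2 -0.44, interval -0.75 to -0.13, adjusted p = 0.139). Myl1 had the lowest adjusted p, 0.0559, at log2 -0.89, and was called without CKO_NAT10 replicate 2 (log2 -1.08, adjusted p = 0.04). In CKO_G641E, 4 of the 8 (Myh6 and Myl3 lower, Myl4 and Myl7 higher) had an unadjusted p under 0.05, and limma-voom called 0. Myh7b was close to the control in both: 21.7 ± 2.73 FPKM in CKO_G641E and 22.2 ± 1.61 FPKM in CKO_NAT10, against 22.0 ± 2.71 FPKM in ff_GFP, with intervals of -0.86 to 0.82 and -0.83 to 0.86 on the log2 scale. The width of these intervals also comes from the spread shared by all 5 groups. In CKO_K209A, 6 of the 8 genes were called against ff_GFP, 1 higher and 5 lower, where 47.7% of genes tested were called (23.2% higher and 24.5% lower) and 59.5% did not overlap. There Myl1 fell by 2.73, Myh7b by 3.41, Myh6 by 1.51, Myl2 by 1.24 and Myl3 by 0.87, with adjusted p of 9.39e-06 or less. Myh7 rose by 1.13 (adjusted p = 0.0333), and this call ended when CKO_K209A replicate 2 or 3 or any ff_GFP heart was left out (adjusted p = 0.0521 to 0.131), with no filter (0.0685) and without the 3 libraries high in Myl7 (0.0605). Quantile normalization ended the Myl3 call (adjusted p = 0.264).

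The balance of the 2 main heavy chains was read as the share of Myh7 in the summed FPKM of Myh6 and Myh7. Myh7 was a minor part in every heart. The share was 2.22%, 2.42% and 4.82% in CKO_K209A, 0.561%, 0.587% and 0.573% in CKO_G641E, 0.492%, 0.492% and 0.451% in CKO_NAT10, 1.14%, 5.11% and 5.73% in CKO_GFP and 0.510%, 0.487% and 0.460% in ff_GFP. All 6 hearts of CKO_K209A and CKO_GFP lay above all 9 others. The size of the share depends on the gene lengths used. With principal transcript lengths it was 2.775%, 3.017% and 5.981% in CKO_K209A and 1.43%, 6.338% and 7.093% in CKO_GFP. It was then at most 0.7365% in the other groups. The means were 3.15% ± 1.45 in CKO_K209A, 0.574% ± 0.0129 in CKO_G641E, 0.478% ± 0.0234 in CKO_NAT10, 3.99% ± 2.49 in CKO_GFP and 0.486% ± 0.0253 in ff_GFP (SD, n = 3 each). An exact permutation test over all 1401400 ways to divide the 15 hearts into the 5 groups gave p = 0.0146, or 0.0438 adjusted by Benjamini-Hochberg over 3 such shares; 2 groups of 3 alone cannot reach below 0.10. With 1 library left out, the adjusted exact permutation p was 0.0152 without CKO_GFP replicate 1 and 0.034 without CKO_G641E replicate 3, and it lay between 0.0609 and 0.108, above the threshold, without any of the other 13. Reads from stretches that the 2 genes share cannot be told apart, and to that extent their split is uncertain. The principal transcripts were 90.5% identical over 6048 aligned bases, and the longest identical stretch was 245 bases. Of the 150-base windows of Myh7, 5.43% occurred unchanged in Myh6. With Myh6 far more abundant, how many reads from shared stretches were given to either gene was not tested. No 150-base window was shared between Myh7b and Myh6 or within the light chain pairs compared.

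**Figure D3:**
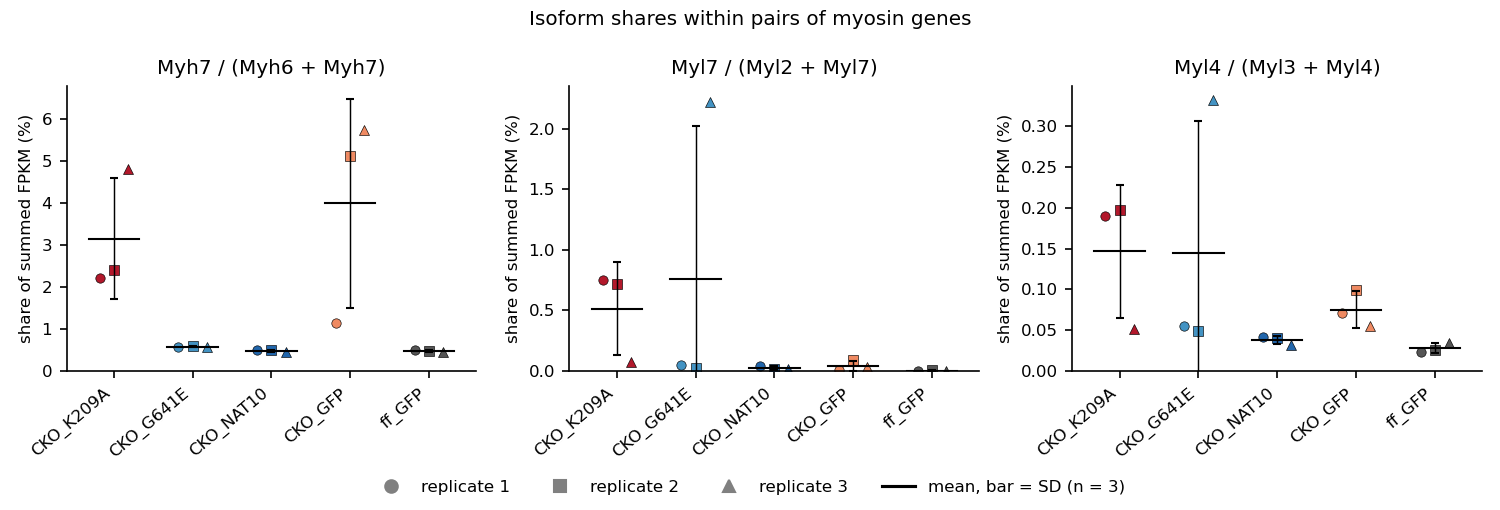
Share (vertical axis, percent of summed FPKM, from 0) of Myh7 with Myh6, of Myl7 with Myl2 and of Myl4 with Myl3 in each heart, with the mean and a bar of 1 SD (n = 3 per group). The Myh7 share was 1.14% or more in all CKO_K209A and CKO_GFP hearts and 0.587% or less in the rest. The light chain shares were raised in CKO_G641E replicate 3 and in CKO_K209A replicates 1 and 2.

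Summed by class, the FPKM of the 3 heavy chains averaged 2213 ± 226 in CKO_K209A, 4941 ± 427 in CKO_G641E, 4523 ± 363 in CKO_NAT10, 2764 ± 383 in CKO_GFP and 6157 ± 783 in ff_GFP (SD, n = 3 each). The 3 essential light chains averaged 1388 ± 30.6 FPKM in CKO_K209A, 2198 ± 155 in CKO_G641E, 2189 ± 146 in CKO_NAT10, 1739 ± 56.7 in CKO_GFP and 2545 ± 49.4 in ff_GFP. The 2 regulatory light chains averaged 948 ± 87.7 FPKM in CKO_K209A, 1974 ± 215 in CKO_G641E, 1828 ± 101 in CKO_NAT10, 1094 ± 114 in CKO_GFP and 2222 ± 152 in ff_GFP. In all 3 classes the order of the means was the same: CKO_K209A, CKO_GFP, CKO_NAT10, CKO_G641E and ff_GFP from low to high. CKO_NAT10 and CKO_G641E overlapped in each class, as did CKO_K209A and CKO_GFP in the heavy and regulatory classes. Levels of different genes compare only roughly, because the deposited lengths join all exons of a gene: for Myl4 that length is 4637 bases where its principal transcript has 943, and for Myl7 both are 590.

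The atrial chains Myl7 (ENSMUSG00000020469; chromosome 11, 5896637 to 5898782) and Myl4 (ENSMUSG00000061086; chromosome 11, 104550663 to 104595753) were called in none of the 10 comparisons with all libraries. Replicate 3 set their means in CKO_G641E, and replicates 1 and 2 set them in CKO_K209A. Myl7 was at 7.47, 7.23 and 0.597 FPKM in CKO_K209A, at 0.854, 0.478 and 49.3 FPKM in CKO_G641E, at 0.697, 0.357 and 0.262 FPKM in CKO_NAT10, at 0.107, 1.01 and 0.340 FPKM in CKO_GFP, and at 0, 0.253 and 0 FPKM in ff_GFP. CKO_G641E replicate 3 had 459 reads of Myl7, CKO_K209A replicates 1 and 2 had 66 and 69, and no other library had more than 8. A count of 0 allows up to 3 reads, or 0.369 and 0.362 FPKM in the ff_GFP libraries without reads (counting error only). Myl4 was at 2.61, 2.81 and 0.709 FPKM in CKO_K209A, at 1.23, 0.989 and 7.66 FPKM in CKO_G641E, at 0.931, 0.817 and 0.733 FPKM in CKO_NAT10, at 1.28, 1.69 and 0.937 FPKM in CKO_GFP, and at 0.594, 0.660 and 0.874 FPKM in ff_GFP. The same 3 hearts were the highest for both genes. Myl7 in CKO_K209A against ff_GFP differed by log2 2.83 (adjusted p = 0.0621) and was called with a pseudocount of 0.1 (0.0185), with total-count scaling (0.0483), with the 2 groups alone (0.0185) and without CKO_K209A replicate 3 (0.0243). Without that replicate Myl4 was called there too (log2 1.41, adjusted p = 0.048). The Myl4 difference in CKO_GFP against ff_GFP, log2 0.56 with no overlap, had an adjusted p of 0.433 and was called without the 3 high libraries (0.0317).

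Of 10 atrial markers, 2 were higher in CKO_G641E replicate 3, the heart highest in Myl7, than in all other libraries, and the other 8 were not. Sln, the sarcolipin gene of atrial muscle, was at 3.56 FPKM in CKO_G641E replicate 3 and at most 0.328 FPKM in every other library. Mybphl, a myosin-binding protein H-like gene of atria, was at 3.03 FPKM in CKO_G641E replicate 3, at 0.681 FPKM in CKO_K209A replicate 1 and at most 0.351 FPKM in the other libraries, with 0 in CKO_K209A replicate 2. Bmp10, a growth factor of the right atrium, was at 0.0280 FPKM or less everywhere and at 0 in all 3 high libraries. The 10 atrial markers summed to 47.5 to 64.7 FPKM in CKO_K209A, 34.6 to 46.9 in CKO_G641E, 40.3 to 43.4 in CKO_NAT10, 46.0 to 51.0 in CKO_GFP and 38.3 to 40.02 in ff_GFP. Of the 7 of them tested, 1 was higher and 3 lower in CKO_GFP against ff_GFP: Dkk3 (log2 2.56, adjusted p = 1.51e-07) rose, and Stard10 (-1.27, 2.61e-05), Tbx5 (-1.13, 0.0014) and Nr2f1 (-0.80, 0.00167) fell. Dkk3, the largest part of the sums in CKO_K209A and CKO_GFP, was at 28.5, 36.0 and 22.8 FPKM in CKO_K209A, at 7.10, 6.68 and 10.4 FPKM in CKO_G641E, at 8.43, 8.73 and 8.17 FPKM in CKO_NAT10, at 23.0, 27.0 and 25.7 FPKM in CKO_GFP and at 3.71, 3.80 and 4.11 FPKM in ff_GFP. It was high in all CKO_K209A and CKO_GFP hearts, and within CKO_K209A and CKO_G641E it was highest in the hearts high in Myl7. The part of atrial tissue in the Myl7 and Myl4 values was not tested. The shares of Myl7 with Myl2 and of Myl4 with Myl3 reached 2.22% and 0.332% in CKO_G641E replicate 3 in a comparison across the 5 groups that did not pass the test (exact permutation p = 0.297 and 0.299, each 0.299 adjusted over the 3 shares). The size of these shares depends on the gene lengths used: with principal transcript lengths they were 1.02% and 0.745% in that heart.

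**Figure D4:**
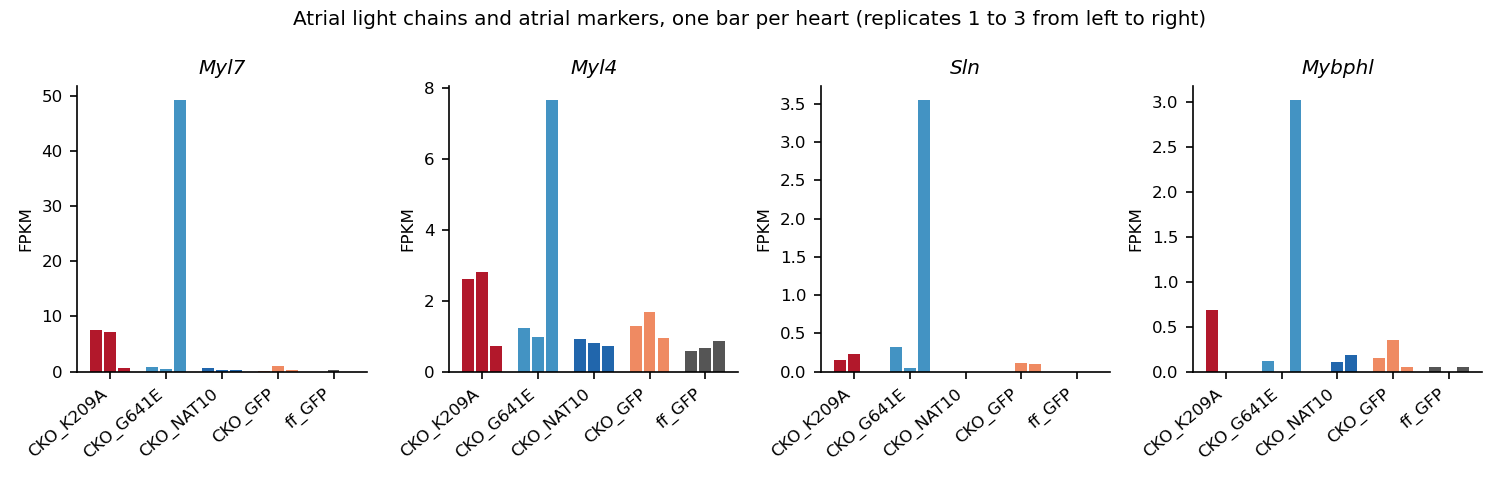
FPKM (vertical axis, linear, from 0) of the atrial light chain genes Myl7 and Myl4 and the atrial markers Sln and Mybphl, with 1 bar per heart. CKO_G641E replicate 3 had the highest bar in all 4 panels, and CKO_K209A replicates 1 and 2 came next in Myl7 and Myl4.

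The noncoding entries in the heavy chain cluster did not move like Myh7. Mir208b, which lies in an intron of Myh7, was at 112, 64.9 and 68.6 FPKM in CKO_GFP, against 369, 219 and 292 FPKM in ff_GFP (67 to 137 reads and 226 to 392 reads over an entry of 77 bases). It fell by 1.85 (adjusted p = 0.000237) where Myh7 rose. It was at 61.6, 69.1 and 32.8 FPKM in CKO_K209A, at 210, 198 and 318 FPKM in CKO_G641E and at 193, 176 and 156 FPKM in CKO_NAT10, and against CKO_GFP it rose in CKO_G641E and CKO_NAT10 (log2 1.57 and 1.13, adjusted p = 0.00134 and 0.0108). Reads over this entry cannot be told from reads of the Myh7 intron around it, nor, without the strand setting, from RNA of the opposite strand. Mir208a, in an intron of Myh6 and read at only 6 to 33 reads a library, was at 6.83, 12.6 and 4.83 FPKM in CKO_GFP, against 28.8, 11.7 and 24.8 FPKM in ff_GFP. Those groups overlapped, and Mir208a fell by 1.38 (adjusted p = 0.0094). Mir499 had 1 read, in CKO_NAT10 replicate 1, and none in the other 14 libraries.

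Mhrt, the long noncoding RNA that overlaps Myh7 from the opposite strand, was at 13.7, 10.9 and 10.4 FPKM in CKO_GFP, against 32.6, 23.5 and 29.0 FPKM in ff_GFP, and fell by 1.24 (SE 0.15, adjusted p = 2.75e-05). It rose in CKO_NAT10 and CKO_G641E against CKO_GFP (log2 0.60 and 1.25, adjusted p = 0.00946 and 5.83e-05) and fell in CKO_K209A (log2 -0.60, adjusted p = 0.0312). It was also lower in CKO_NAT10 than in ff_GFP (log2 -0.64, adjusted p = 0.043). Exons of Mhrt share 484 bases (39.9%) with exons of Myh7; the strand setting of the counting is not given in the sources used here, and without it reads from the 2 genes over those bases cannot be told apart.

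**Figure D5:**
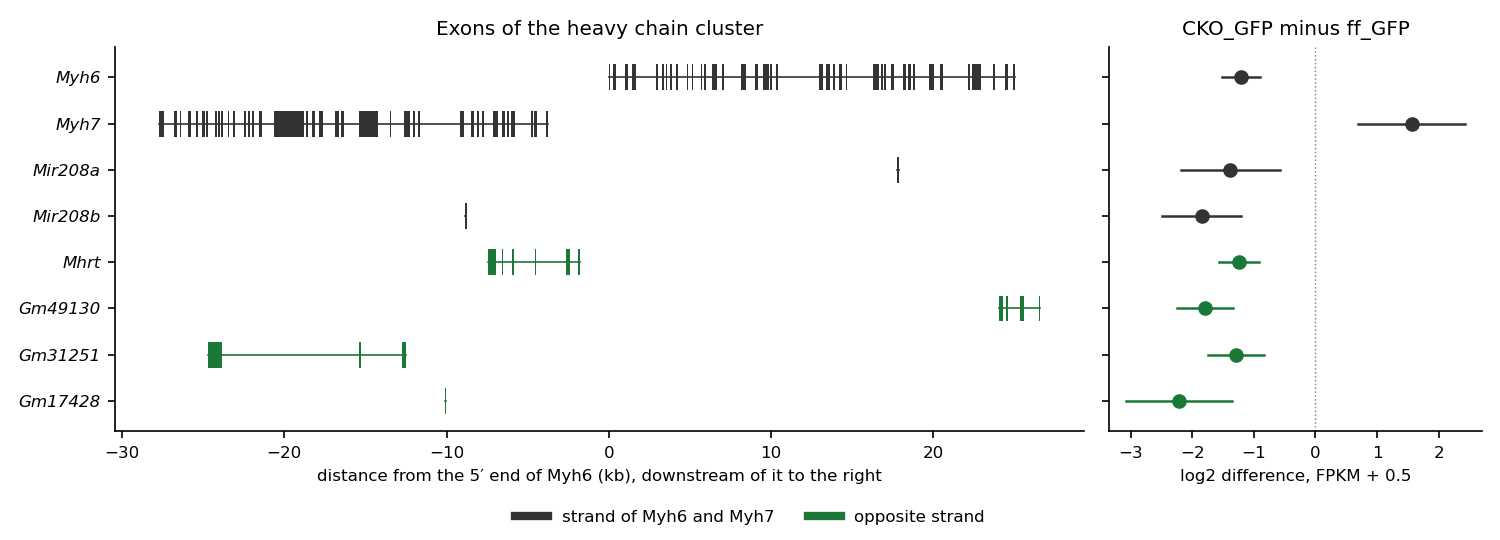
Left, exons of the heavy chain cluster by distance from the 5′ end of Myh6 in kilobases, drawn to scale with genes of the Myh6 strand in black and of the opposite strand in green. Right, the log2 difference of FPKM + 0.5 between CKO_GFP and ff_GFP with its 95% limma interval; Myh7 (1.56) was the only one of the 8 entries drawn that was higher in CKO_GFP.

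Other genes of the motor and its filament were read from lists, beside the 40.5% of all genes tested that were called in CKO_GFP against ff_GFP (19.8% higher and 20.8% lower). Of 11 other myosin II heavy chains, 4 passed the filter, and in CKO_GFP against ff_GFP 1 was higher and 2 lower. Myh14, a nonmuscle heavy chain, fell by 1.502 (adjusted p = 1.27e-06), Myh11 of smooth muscle fell by 0.59 (0.0171) and the nonmuscle Myh10 rose by 0.57 (0.0022), while Myh9 differed by 0.20 (0.315). The skeletal chain genes Myh1 and Myh4 were at or near 0 in all libraries. Of 6 other light chains tested, 2 were higher: Myl12a, a nonmuscle chain (0.75, adjusted p = 3.06e-05), and Myl6, a chain of nonmuscle and smooth muscle myosin (0.65, 0.000725). A further 2 were lower, Myl9 of smooth muscle (-0.50, 0.0266) and Myl6b (-0.47, 0.033). Of 15 thick filament and assembly genes tested, 3 were higher and 7 lower, with a median of -0.27. Unc45b, the myosin chaperone of striated muscle, fell by 1.01 (adjusted p = 1.68e-05), the methyltransferase Smyd1 fell by 0.87 (3.18e-05) and cardiac myosin-binding protein C (Mybpc3) fell by 0.92 (0.000266), while the chaperone Hsp90aa1 rose by 1.47 (1.31e-07).

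The kinases and phosphatases that act on the regulatory light chain were split, 4 of 10 tested higher and 3 lower, where 19.8% and 20.8% of all genes were. Mylk3, the cardiac light chain kinase, averaged 79.1 ± 14.2 FPKM in CKO_GFP and 153 ± 18.1 FPKM in ff_GFP (SD, n = 3 each) and fell by 0.96 (adjusted p = 0.000226). Mylk4 fell by 2.22 (0.000273), while Ppp1r12a, which targets a phosphatase to myosin, rose by 0.61 (0.00012), and the kinase Dapk3 rose by 0.76 (0.000544). Against CKO_GFP, Mylk3 rose in CKO_NAT10 and CKO_G641E (log2 0.62 and 0.54, adjusted p = 0.00742 and 0.0152, the CKO_G641E hearts overlapping with CKO_GFP) and fell in CKO_K209A (log2 -1.04, adjusted p = 0.00201). Of 27 transcriptional regulators tested, 7 were higher and 7 lower, beside the same shares over all genes. Tead1, a factor that binds the MCAT letters, rose by 0.75 (adjusted p = 6.18e-05), and Mef2d (-0.49, 0.000173), Mef2a (-0.57, 0.000239) and Sox6, which represses slow muscle genes in mouse muscle (-0.87, 0.000203), fell.

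Of 10 thyroid hormone genes tested, 6 fell and 1 rose in CKO_GFP against ff_GFP, where 20.8% of all genes tested fell and 19.8% rose; their median log2 difference was -0.27, against 0 for all genes. Rxrg, a retinoid X receptor that pairs with thyroid hormone receptors, averaged 3.99 ± 1.93 FPKM in CKO_GFP and 27.7 ± 0.0484 FPKM in ff_GFP (SD, n = 3 each), and fell by 2.76 (adjusted p = 7.32e-06). Thrb, a thyroid hormone receptor, fell by 1.11 (0.00143) and Slc16a10, a thyroid hormone transporter, by 1.32 (3.46e-05). Dio2, the enzyme that activates the hormone, rose by 2.18 (4.68e-06). In CKO_NAT10 and CKO_G641E against CKO_GFP, 2 of the 10 rose and 1 fell in each, and in CKO_K209A none rose and 1 fell, close to the 31.2%, 31.3% and 7.93% of all genes called in those 3 comparisons.

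The genes whose profile over the 15 hearts was nearest to that of each myosin were found by the root mean square difference of log2 values centred on each gene's mean, among 10639 candidate genes that code for protein and average 1 FPKM or more. Nearest to Myh6 were Ank1, Rnf10 and Prkaca (differences of 0.109 to 0.121, where the SD of Myh6 itself was 0.605), and nearest to Myl2 were Oaz2, Dld and Rnf10 (0.0927 to 0.103). Myl3 was nearest to Pccb, Atp5o and Chchd2, all mitochondrial proteins (0.0467 to 0.0654). Myh7b was nearest to the muscle enolase Eno3, Hhatl and Fbxl22 (0.304 to 0.318), Myl1 to Msrb1, Hrasls and Fgf1 (0.260 to 0.305), and Myh7 to Pmm1, Slco3a1 and Thsd7a (0.330 to 0.345). Nearest to Myl7 was Myl4 (1.09), followed by Krt18 and Tnni1, the slow skeletal troponin I that fetal hearts use. Nearest to Myl4 were Rnf115, Gas2l3 and Lmcd1 (0.536 to 0.582, with an SD of 0.776 for Myl4). These values describe likeness over hearts that share groups, and no test was made.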

How the data were processed

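RNA of 15 hearts was read as paired 150-base reads of poly(A) RNA. Per the labels' protocols and the submitters' processing notes, HISAT2 2.0.5 placed the reads on GRCm38/mm10 and featureCounts 1.5.0-p3 quantified them; the tools named were also CASAVA and, per the submitters' processing notes, DESeq2 1.20.0, with no role given. The authors deposited FPKM per gene; how they computed FPKM and the strand setting are not given in the sources used here. FPKM multiplied by the deposited gene length came out as whole reads for 100% of values (tolerance 0.05 reads), and reads divided by the authors' implied library size ranged over 0.884 to 1.10. This ratio differed by group: it was 1.072 to 1.101 in ff_GFP, 1.004 to 1.029 in CKO_G641E and 0.9609 to 1.021 in CKO_NAT10. In CKO_GFP it was 0.927 to 1.048, and in CKO_K209A 0.8844 to 0.9236.

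Genes reaching 0.5 FPKM in 3 or more libraries were tested with limma 3.58.1 in R 4.3.3 on log2(FPKM + 0.5), all 5 groups in one fit (10 residual degrees of freedom), in 10 comparisons, with Benjamini-Hochberg adjustment in each. The script was tested on simulated data. Alternatives were other pseudocounts and filters, quantile and total-count scaling, 2 groups alone, a replicate block, each library left out and, added after seeing the data, limma-voom on recovered reads, principal transcript lengths and leaving out the 3 libraries high in Myl7. Shares were tested by exact permutation over hearts. Named genes were the 8 members, up to 4 genes with the smallest adjusted p in CKO_GFP minus ff_GFP from each of the 6 lists of motor, filament, kinase, regulator and thyroid genes, the microRNA and Mhrt entries and the 3 nearest profiles. Nat10, Nppa, the neighbours in the cluster and the named atrial and skeletal markers (Sln, Mybphl, Bmp10, Dkk3, Stard10, Tbx5, Nr2f1, Tnni2, Myog, Myh1 and Myh4) fall outside that rule and were picked with their values in view. Members and lists were chosen with earlier results of these data known. No 2 libraries of a group held identical values. Gene positions matched GENCODE M21 for all 16 entries compared, and promoter and microRNA sequences are from RefSeq (GRCm38.p6), with all 8 members matched. The labels call the 3 hearts of a group independent biological replicates.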

Additional observations from a re-analysis of the deposited data

How the results depend on the processing

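Of the values for single genes, 744 of 800 under other settings and 439 of 480 with 1 library left out kept their direction and their side of the threshold; calls that ended are given beside their results. With all settings but single libraries left out, the number of the 8 genes called ran from 5 to 7 in CKO_GFP and CKO_K209A against ff_GFP and from 4 to 6 in CKO_G641E against CKO_GFP and CKO_K209A against CKO_NAT10 and CKO_G641E, where 6 were called in each; it moved by over 1.5 times in 3 other comparisons. CKO_NAT10 against CKO_GFP had 3 with no filter and with quantile normalization. CKO_K209A against CKO_GFP had 1 with no filter, quantile normalization or total-count scaling, and 0 with the 2 groups alone or without the 3 libraries high in Myl7. CKO_NAT10 against ff_GFP had 1 with limma-voom. As log2 ratios, the Myl7 and Myl4 shares gave exact permutation p = 0.0467 and 0.0479. With each library left out in turn, the unadjusted exact permutation p ran from 0.00505 to 0.036 for the Myh7 share (adjusted over the 3 shares, 2 of 15 stayed under the threshold), 0.0247 to 0.428 for Myl7 and 0.034 to 0.363 for Myl4, both lowest without CKO_G641E replicate 3. The number called then ran from 5 to 6 in CKO_K209A against CKO_G641E, 1 to 2 against CKO_GFP and 5 to 7 against ff_GFP, from 5 to 6 in CKO_NAT10 against CKO_GFP and 0 to 1 against ff_GFP, and stayed at 6, 6, 6, 0 and 0 in CKO_GFP against ff_GFP, CKO_G641E against CKO_GFP, CKO_K209A against CKO_NAT10, CKO_G641E against CKO_NAT10 and CKO_G641E against ff_GFP. Causes were not tested.

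Log2 differences that changed sign were not called before or after. With quantile normalization these were Myh6 (0.17) and Myl2 (0.11) in CKO_K209A against CKO_GFP, Myl7 in CKO_NAT10 against CKO_GFP (-0.0656), Myl2 in CKO_G641E against CKO_NAT10 (-0.0662), Myl3 in CKO_NAT10 against ff_GFP (0.0101), and Myh7b (0.00899) and Myl3 (0.0209) in CKO_G641E against ff_GFP. With total-count scaling they were Myl3 in CKO_G641E against CKO_NAT10 (-0.0271), and Myh7 (0.0225) and Myh7b (0.0712) in CKO_G641E against ff_GFP. With a pseudocount of 1 they were Myl7 in CKO_NAT10 against CKO_GFP (-0.0128) and in CKO_K209A against CKO_G641E (-0.103), the second also with limma-voom (-0.0112). Without the 3 libraries high in Myl7 they were Myl4 in CKO_G641E (-0.15) and CKO_K209A (-0.55) and Myh7 in CKO_K209A (0.12) against CKO_GFP, Myl3 in CKO_G641E (-0.036) and Myl4 in CKO_K209A (-0.13) against CKO_NAT10, and Myl7 in CKO_K209A against CKO_G641E (-0.0694). With single libraries left out the ranges were, against CKO_GFP, -0.29 to 0.37 for Myl7 in CKO_NAT10, -0.15 to 1.08 for Myl4 in CKO_G641E and -1.03 to 0.0077 for Myh7b in CKO_K209A. They were -0.103 to 0.0674 for Myh7b and -0.0544 to 0.061 for Myl3 in CKO_G641E against CKO_NAT10, and -0.696 to 0.531 for Myl4 and -1.01 to 1.82 for Myl7 in CKO_K209A against CKO_G641E. Against ff_GFP they were -0.0752 to 0.0998 for Myh7b in CKO_NAT10, and -0.178 to 0.0204 for Myh7 and -0.113 to 0.0828 for Myh7b in CKO_G641E.

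Total-count scaling moved the median of all genes by 0.12 in CKO_GFP against ff_GFP, and to 0.209, 0.105 and 0.132 in CKO_K209A against ff_GFP, CKO_NAT10 and CKO_G641E. The share of calls that were higher was then 64.8%, 69.2%, 63.7% and 65.6%, in place of 48.8%, 48.5%, 48.9% and 48%. In CKO_K209A against CKO_GFP it was 67.1% (49.5% with quantile normalization) in place of 27.4%, in CKO_NAT10 against ff_GFP 70.9% (42.8%) in place of 32%, and in CKO_G641E against ff_GFP 65.2% in place of 35%. With the replicate number as a block, the number of the 8 genes called was 6 in CKO_GFP against ff_GFP and unchanged in the other 9 comparisons, and the share p-values were 0.00792, 0.388 and 0.386 for Myh7, Myl7 and Myl4. Of 30 pairs with the same number, 3 had deviations correlated above 0.1 (r from -0.15 to 0.364), so the numbers were not taken to pair samples. Planned edgeR and DESeq2 fits and TMM scaling were not run. Depth limits Myl7, Mir208a and Mir499, which had few reads.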

Other observations

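Beside Mhrt, the entry Gm29015 lies within Myh7 on the opposite strand and was at 0 FPKM in every group. A further 3 entries, which had reads, lie in the heavy chain cluster on the strand opposite to Myh6 and Myh7. They were picked with their values in view. Gm49130, whose exons share 114 bases with exons of Myh6, averaged 16.1 FPKM in CKO_GFP and 57.3 FPKM in ff_GFP (log2 -1.79, limma adjusted p = 1.81e-05). Gm31251, which lies within Myh7 and shares 523 exon bases with it, averaged 2.40 FPKM in CKO_GFP and 6.53 FPKM in ff_GFP (log2 -1.29, adjusted p = 0.000264). Gm17428, an entry of 93 bases in Myh7 that touches none of its exons, averaged 14.7 FPKM in CKO_GFP and 65.0 FPKM in ff_GFP (log2 -2.21, adjusted p = 0.000631). All 3 entries with reads were lower in each CKO_GFP heart than in any ff_GFP heart, where 46.5% of genes tested did not overlap, while Myh7 was higher. Reads of overlapping genes cannot be told apart without the strand.

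The CKO_GFP heart with the least Myh7 and the most Myh7b, replicate 1, also had the lowest level of the natriuretic peptide gene Nppa in its group, picked with its values in view: 1897 FPKM, with 4164 and 4136 FPKM in the other two. Within CKO_K209A, replicate 3 had the most Myh7 (96.2 FPKM), the most Nppa (3477 FPKM) and the least Myl7 and Myl4 of its group.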
